A study of Saccharomyces cerevisiae with 15 samples.

Results

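The hexose transporters and glucose sensors of budding yeast were followed as 10 genes, namely the transporter genes HXT1, HXT2, HXT3, HXT4, HXT5, HXT6 and HXT7, the sensor genes SNF3 and RGT2, and MTH1, which encodes a corepressor of the pathway. They were taken by their systematic names, and no measured value entered that rule. The list was, however, chosen with earlier results of these data known. All 10 were found among the 7127 genes of the count table and passed its filter on low counts. Polyadenylated RNA came from W303 cells of genotype ZPR1-AID, in which an auxin-inducible degron at the C terminus of Zpr1 lets the auxin derivative 5-Ph-IAA send the protein for destruction. All 15 libraries carry the degron, with 3 libraries in each of 5 groups: untreated at 0 h, exposed to 5-Ph-IAA during 0.5 h, 1.5 h or 3 h, and kept with DMSO, the usual solvent, during 3 h. No library of a strain without the degron was analysed here, and DMSO was analysed at 3 h only, so a difference between 5-Ph-IAA (called auxin below) and untreated cells holds compound, solvent and time in culture together. The labels say that cells were grown to mid-log phase but not whether replicates were separate cultures, so the p-values speak of the spread among libraries, which may be technical.

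Yeast takes up glucose by facilitated diffusion through the Hxt proteins, whose members differ in affinity and in the glucose level at which their genes are on. Snf3 and Rgt2 resemble transporters but act as receptors, Snf3 for low and Rgt2 for high glucose, and both carry a long C-terminal tail inside the cell. Without a glucose signal the repressor Rgt1, with Mth1 and Std1, sits on HXT promoters; a signal leads to phosphorylation of Mth1 and Std1 by the casein kinases Yck1 and Yck2 and to their destruction through the ubiquitin ligase Grr1. Mig1, a second repressor, works in high glucose and is held off by the kinase Snf1 when glucose is scarce.

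The genes cluster in the genome, as given by the R64 annotation. HXT4 (YHR092C, chromosome VIII, 287081 to 288811), HXT1 (YHR094C, chromosome VIII, 290913 to 292625) and HXT5 (YHR096C, chromosome VIII, 294669 to 296447) stand in a row on the minus strand, 2101 and 2043 bases apart. HXT7 (YDR342C, chromosome IV, 1154216 to 1155928), HXT6 (YDR343C, chromosome IV, 1159608 to 1161320) and HXT3 (YDR345C, chromosome IV, 1162957 to 1164660) form a second row on the minus strand, 3679 and 1636 bases apart. SNF3 (YDL194W, chromosome IV, 111580 to 114234), RGT2 (YDL138W, chromosome IV, 213351 to 215642) and MTH1 (YDR277C, chromosome IV, 1014401 to 1015702) lie elsewhere on chromosome IV, and HXT2 (YMR011W, chromosome XIII, 288079 to 289704) stands alone on chromosome XIII.

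HXT6 and HXT7 are shown first because their counts can hardly be told apart. Their coding sequences of 1713 bases in the R64 genome differ at 3 bases, all within the last 82, and share an identical run of 1631 bases. With positions counted from the A of the start codon and the HXT6 base first, the differences are T1632C, G1666A and T1677C, of which G1666A changes the amino acid. The 3 bases stand in capitals in the coding strand below, chrIV:1159632-1159701, minus strand for HXT6 and chrIV:1154240-1154309, minus strand for HXT7.
HXT6: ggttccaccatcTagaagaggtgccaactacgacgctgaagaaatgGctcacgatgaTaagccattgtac
HXT7: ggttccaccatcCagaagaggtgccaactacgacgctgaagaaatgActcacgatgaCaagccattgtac
A read from the rest of either coding sequence matches both genes, and how the authors' counting treated such reads is not stated in what was available. The sum of both genes is therefore reported beside each of them. The other transporters are farther apart, with identities over aligned coding bases from 69.3% (HXT2 and HXT5) to 82.8% (HXT4 and HXT7). Shorter identical runs remain, of 149 bases between HXT3 and both HXT6 and HXT7, 119 between HXT1 and HXT5 and 78 between HXT3 and HXT4. Reads within such runs match more than 1 gene too, and the sum of HXT6 and HXT7 does not cover them. What they add to the less expressed genes was not tested.

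The upstream sequences are shown because Rgt1 acts there. The letters CGGANNA, the core that Rgt1 recognises, were searched on both strands of the 1000 bases before each start codon. HXT3 held 9 matches and HXT1 held 8, and no other of 5996 nuclear protein-coding genes held as many as 8, a share of 0.0334% for both together. HXT5 and MTH1 held 4 each (3.49% of windows held 4 or more), HXT2, HXT4 and HXT6 held 3 each (11.2%), HXT7 held 2 (31.6%), and SNF3 and RGT2 held none, whereas 66.5% of all windows held at least 1. HXT5, which held as many matches as MTH1, and HXT2 and HXT6, which held as many as HXT4, are not printed below. The stretches of up to 200 bases richest in matches, at least 200 bases before the start codon and with up to 12 bases on either side, are printed for HXT3 and HXT1, which hold the most matches, and for HXT4 and MTH1, with the matches in capitals. They are read on the coding strand at chrIV:1165002-1165210, minus strand for HXT3, chrVIII:293006-293121, minus strand for HXT1, chrVIII:289089-289248, minus strand for HXT4 and chrIV:1016193-1016354, minus strand for MTH1.
HXT3: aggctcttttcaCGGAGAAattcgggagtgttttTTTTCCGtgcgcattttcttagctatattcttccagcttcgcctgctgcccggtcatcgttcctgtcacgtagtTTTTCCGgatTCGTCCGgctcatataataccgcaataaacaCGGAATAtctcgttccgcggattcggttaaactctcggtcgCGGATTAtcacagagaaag
HXT1: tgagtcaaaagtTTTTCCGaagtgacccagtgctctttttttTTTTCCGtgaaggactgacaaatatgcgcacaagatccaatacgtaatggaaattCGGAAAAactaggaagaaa
HXT4: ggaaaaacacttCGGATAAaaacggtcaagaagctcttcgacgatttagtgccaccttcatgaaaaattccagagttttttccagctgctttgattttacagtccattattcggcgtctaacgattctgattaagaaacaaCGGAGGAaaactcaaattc
MTH1: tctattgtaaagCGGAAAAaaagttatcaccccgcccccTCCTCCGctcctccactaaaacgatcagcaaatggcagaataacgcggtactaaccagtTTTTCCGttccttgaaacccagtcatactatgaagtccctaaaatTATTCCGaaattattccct
These are letters of the S288C reference and not of the W303 cells used, and a match does not show that the protein binds. Mig1 letters (CCGGGG and CTGGGG, with GCGGGG and also GTGGGG) were most frequent before HXT2 and HXT4, with 4 matches each, against 0.834% of all windows with 4 or more. They were found 3 times before HXT6 and MTH1, and RGT2 had none. The stress element AGGGG, which shares GGGG with the Mig1 letters, was found 5 times before HXT6 and 4 times before HXT7, against 0.634% and 2.23% of windows with as many or more.

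**Figure D1:**
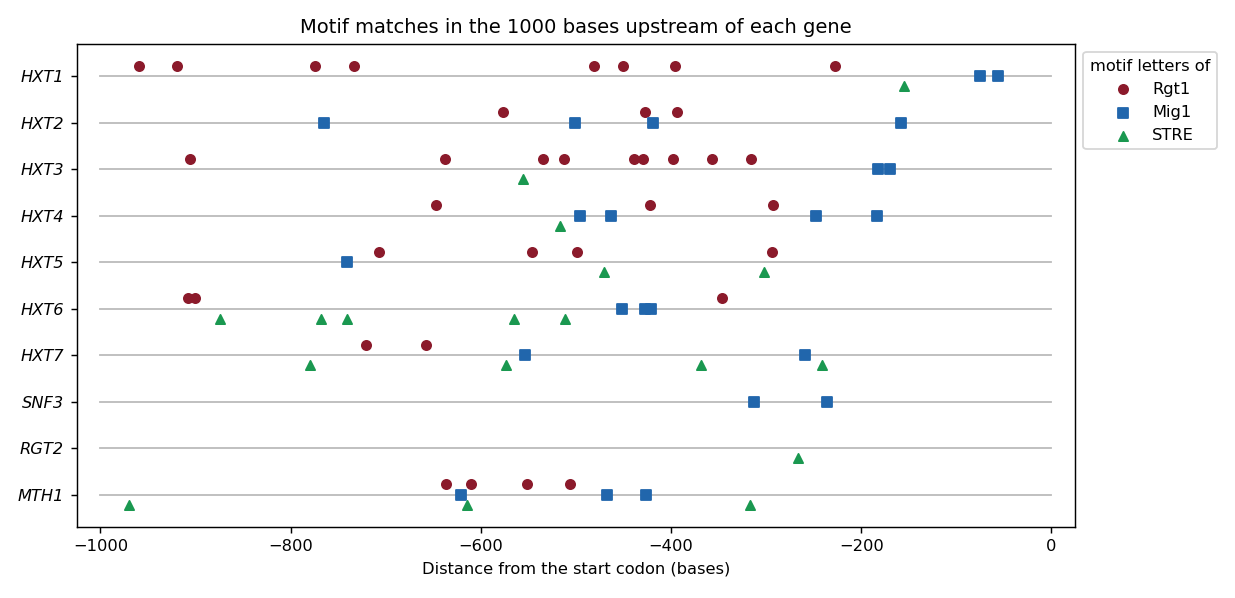
Positions of letters matching Rgt1 (CGGANNA), Mig1 (4 words ending in GGGG) and the stress element STRE (AGGGG) in the 1000 bases before each start codon, on either strand; the horizontal axis is the distance from the start codon in bases and each row is a gene. HXT3 and HXT1 show 9 and 8 Rgt1 matches, and SNF3 and RGT2 none.

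Library totals ran from 2530145 to 21282576 counts. At 3 h of auxin, library 2 had the lowest total and the highest share of mitochondrial genes, 4.62% against 0.0165% to 0.787% in the other two. Levels below are CPM, counts relative to library size after TMM scaling, and changes are log2 differences from edgeR's quasi-likelihood test over 6069 genes. A gene is said to rise or fall only where its adjusted p is under 0.05, and errors of levels are SD over 3 libraries.

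In untreated cells HXT3, HXT1 and HXT2 made up nearly all of the transporter mRNA. Per kilobase of coding sequence HXT3, a low-affinity transporter, had 443 ± 50.9 CPM per kb, HXT1, the low-affinity transporter of high glucose, had 347 ± 47.3, and HXT2, a high-affinity transporter, had 249 ± 62.1. The ranges of HXT3 and HXT1 met (385 in the lowest library of HXT3 and 389.9 in the highest of HXT1), and so did those of HXT1 and HXT2 (296 and 298). Within each library, however, HXT3 was above HXT1 and HXT1 above HXT2. RGT2 with 31.2 ± 1.81 and HXT4, of high affinity, with 29.6 ± 9.39 CPM per kb came next and did not differ beyond their spread. MTH1 (10.8 ± 4.71), HXT7 (9.85 ± 1.56), HXT5 (7.82 ± 1.08), SNF3 (6.85 ± 0.958) and HXT6 (1.32 ± 0.959) were lowest, and the values of HXT6 and HXT7 rest on how shared reads were assigned. Of the summed per-length level of HXT1 to HXT7, 95.6% ± 0.702 belonged to HXT1, HXT2 and HXT3.

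The mixture of transporters differed between 0 h and 3 h. HXT3 took 40.9% ± 1.89 of the summed per-length level before treatment, 51.2% ± 2.04 after 0.5 h, 49.4% ± 2.06 after 1.5 h and 54.4% ± 0.947 after 3 h with auxin, and 56.4% ± 0.828 with DMSO. HXT1 went from 32% ± 1.17 to 24.1% ± 1.76 at 3 h of auxin and 20.9% ± 2.01 in DMSO, and HXT2 from 22.7% ± 2.36 to 12.1% ± 1.33 and 13.5% ± 0.552. HXT4 had 2.68% ± 0.561 in untreated cells against 5.9% ± 1.01 and 6.83% ± 0.549 at 3 h. The 3 libraries of each 3 h group lay above every untreated library for the share of HXT3 and HXT4 and below every one for HXT1 and HXT2. These shares sum to a whole, so they are not independent of each other. The sum itself was 1088 ± 169 CPM per kb in untreated cells, 1627 ± 89 at 3 h of auxin and 1440.0 ± 95 in DMSO.

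**Figure D2:**
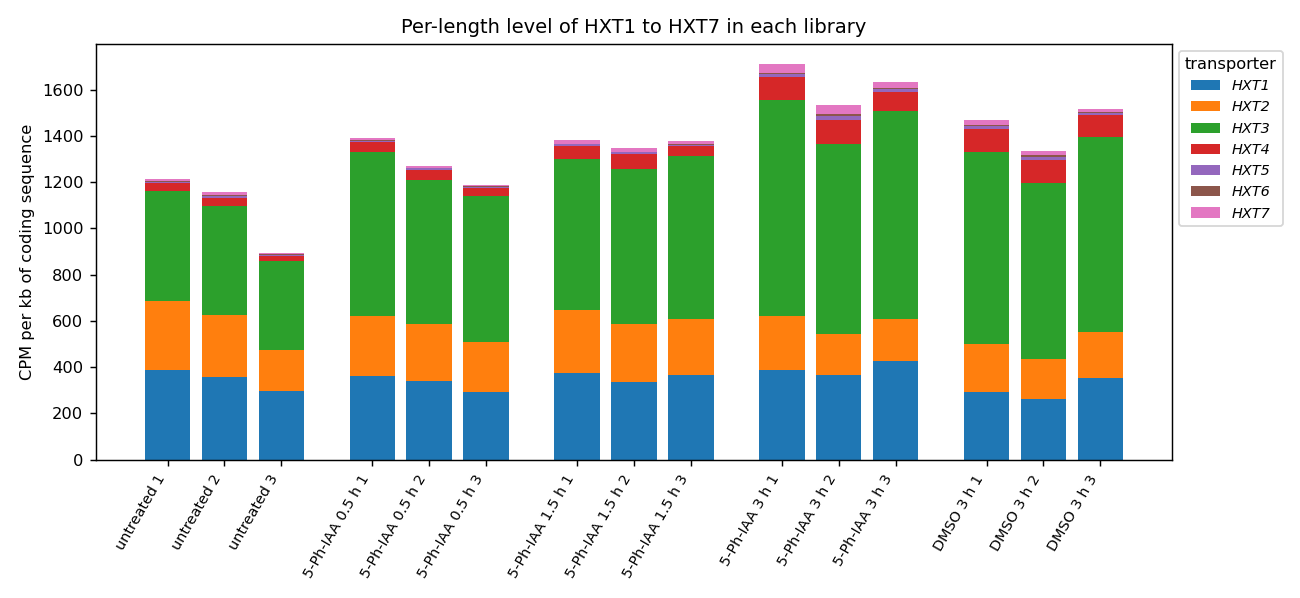
Stacked per-length levels of HXT1 to HXT7, in CPM per kb of coding sequence on the vertical axis, with 1 bar for each of the 15 libraries. HXT3 is the widest band in every library, and the HXT4 and HXT7 bands are wider at 3 h than in untreated cells.

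At 3 h auxin can be set against solvent at equal time. HXT7 was higher under auxin and RGT2 was lower, and the other 8 genes did not pass. In bulk RNA, a change in every cell and a change in some of the cells cannot be told apart, nor can fewer cells of a kind and less RNA per cell. That is 2 of 10, beside 7.94% of all genes (5.07% higher and 2.87% lower). The members' median change was 0.01 log2, and that of all genes was -0.02. HXT7, a high-affinity transporter gene repressed by high glucose, had 71.8, 65.5 and 46.3 CPM in the libraries of auxin and 35, 29 and 25.6 in those of DMSO. The groups did not overlap, and the level was 2.04 times as high (1.03 log2, SE 0.21, adjusted p = 0.00545, n = 3 and 3). HXT7 passed under all 13 alternatives, with adjusted p from 4.19e-05 to 0.0314.

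For HXT6, also of high affinity, the libraries of auxin had 6.59, 15.5 and 9.65 CPM and those of DMSO 10.9, 14.9 and 8, and it did not pass (-0.16, adjusted p = 0.862). A call on HXT7 and none on HXT6 does not show that their changes differ. Both values rest on how the reads shared by this near-identical pair were assigned. The sum of both genes was 78.4, 81 and 56 CPM under auxin and 45.8, 43.9 and 33.6 in DMSO, 1.73 times as high (0.79 log2, SE 0.20, adjusted p = 0.0225). The call on the sum ended in a fit of those 6 libraries alone, and without auxin library 1 or 2 or DMSO library 3 (adjusted p from 0.00165 to 0.0801 over 13 alternatives).

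The share of the pair's counts given to HXT6 did not overlap between these groups. HXT6 held 8.4%, 19.1% and 17.2% of the pair's counts under auxin at 3 h and 23.7%, 34% and 23.8% in DMSO. The highest library of auxin was library 2 with 19.1% (95% Wilson interval 14.4 to 25), and the lowest of DMSO was library 1 with 23.7% (95% Wilson interval 20.4 to 27.5), intervals that cover counting error only and that overlap. The groups' means were 14.9% ± 5.73 and 27.2% ± 5.9. The exact two-sided permutation test, with libraries taken as unpaired, gave p = 0.1, the smallest value that 3 libraries against 3 allow. Any groups of that size without overlap give this value, so the test adds nothing to the lack of overlap. In untreated cells and at 0.5 h and 1.5 h the share ran from 5.67% to 17.6%, on 72 to 287 counts for the pair.

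**Figure D3:**
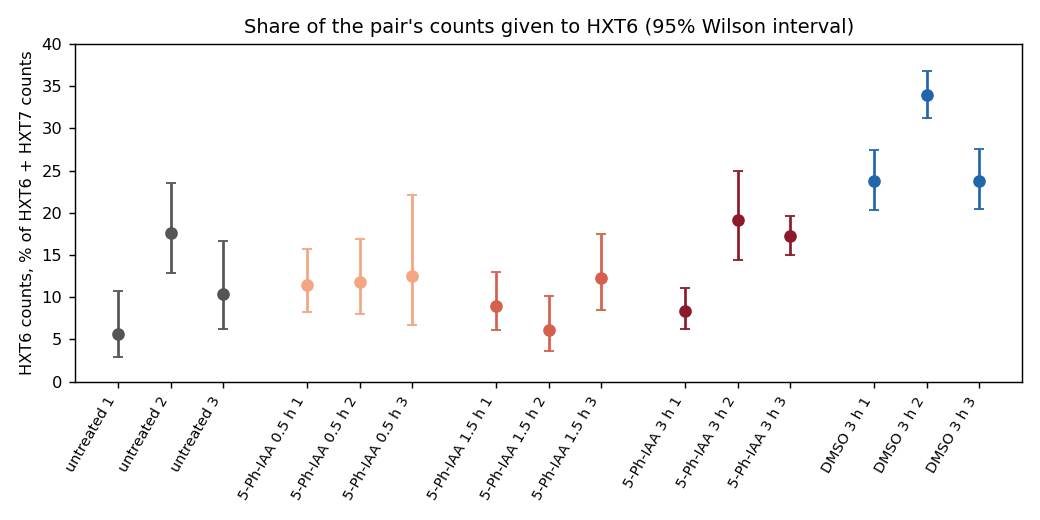
Counts of HXT6 as a percentage of the counts of HXT6 and HXT7 together, for each of the 15 libraries, with 95% Wilson intervals as error bars. The 3 DMSO libraries lie at 23.7% to 34%, above the other 12 libraries, of which the highest is at 19.1%.

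RGT2, the sensor of high glucose, went the other way. It had 50.4, 57 and 61.2 CPM at 3 h of auxin and 75.1, 99.8 and 85.8 in DMSO, without overlap, 0.647 times the DMSO level (-0.63 log2, SE 0.11, adjusted p = 0.00237). The call held under 13 of 14 alternatives and ended in a fit of those 6 libraries alone (adjusted p from 5.82e-05 to 0.0993 over 14 alternatives). SNF3, the sensor of low glucose, had 26.5, 30.2 and 23.3 CPM against 23.8, 28.4 and 26.7, groups that overlap (-0.0017 log2, SE 0.16, adjusted p = 0.997). Whether the changes of the sensors differ from each other was not tested.

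HXT1 stood close to the threshold. Its levels of 663, 624 and 729 CPM under auxin all lay above those of DMSO, 499.8, 447 and 603, and the change was 0.38 log2, SE 0.14, adjusted p = 0.104. It passed where the libraries of that time were paired (0.39 log2, adjusted p = 0.0337) and without DMSO library 3 (0.51 log2), with adjusted p from 0.0337 to 0.319 over 14 alternatives. Groups without overlap were thus seen for 3 of 10 members, HXT1, HXT7 and RGT2, beside 20.0% of all genes. HXT2 (0.03, adjusted p = 0.95), HXT3 (0.13, adjusted p = 0.568), HXT4 (-0.04, adjusted p = 0.938), HXT5 (0.34, adjusted p = 0.432) and MTH1 (-0.24, adjusted p = 0.661) did not pass, with standard errors of 0.11 to 0.27.

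**Figure D4:**
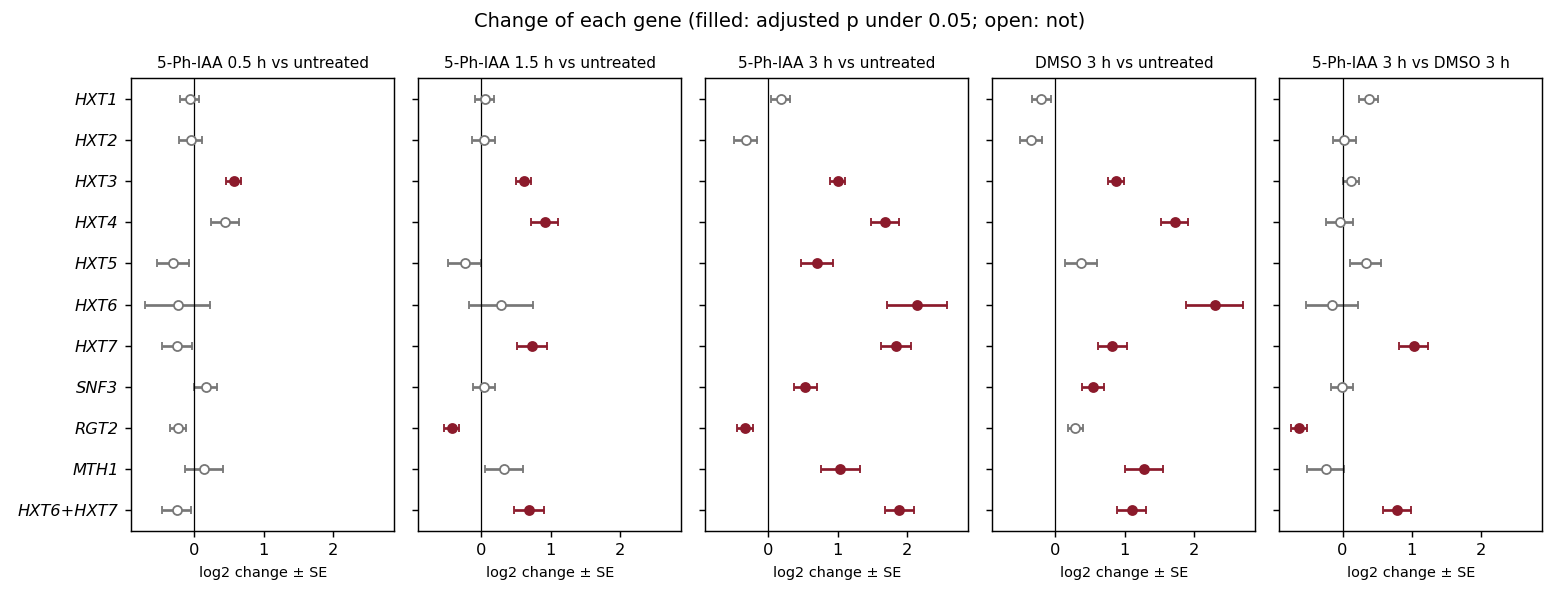
Log2 change of each gene, and of HXT6 and HXT7 summed, in 5 comparisons, with standard errors as bars; filled points have an adjusted p under 0.05. Against untreated cells HXT3, HXT4, HXT6, HXT7, SNF3 and MTH1 are filled in both 3 h groups, whereas in the panel of auxin (5-Ph-IAA) and DMSO at equal time those filled are HXT7, the sum of HXT6 and HXT7, and RGT2.

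Against untreated cells most of the genes differed at 3 h, in DMSO as well as in auxin. At 3 h of auxin 8 of 10 passed, 7 higher and 1 lower, beside 39.3% of all genes (19.6% higher and 19.7% lower), and 8 had groups without overlap, beside 46.2%. In DMSO 6 of 10 passed, all higher, beside 36.1% of all genes (17.6% higher and 18.5% lower), and 6 had groups without overlap, beside 45.8%. The members' median change was 0.85 log2 with auxin and 0.68 with DMSO, that of all genes 0.01 in both. Both comparisons use the same untreated libraries, so their values are set side by side and not counted as repeats.

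HXT3 had 811, 799.9 and 655 CPM in untreated cells, 1597, 1396 and 1537 at 3 h of auxin and 1419, 1297 and 1435 in DMSO. It rose 2 times with auxin (1.0 log2, SE 0.11, adjusted p = 5.06e-06) and 1.83 times with DMSO (0.87, adjusted p = 2.87e-05). HXT4 had 54.5, 65.7 and 33.7 CPM untreated, 170.5, 185 and 140.4 with auxin and 173, 171 and 165 with DMSO. It rose 3.21 times (1.68 log2, SE 0.20, adjusted p = 7.72e-06) and 3.31 times (1.73, adjusted p = 1.01e-05). For both genes all 6 libraries at 3 h lay above all 3 untreated ones, and the 3 h groups overlapped each other.

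HXT7 had 17.2, 19.3 and 14.1 CPM in untreated cells, and it rose 3.6 times with auxin (1.85, adjusted p = 6.84e-06) and 1.77 times with DMSO (0.82, adjusted p = 0.00653). HXT6, at 1.04, 4.13 and 1.63 CPM in untreated cells from only 8, 35 and 14 counts, rose by 2.15 log2 (SE 0.43, adjusted p = 0.000913) and by 2.30 (0.42, adjusted p = 0.000491). Without untreated library 2, the one of 35 counts, these changes were 2.93 and 3.08 log2, and leaving out any 1 library gave 1.82 to 2.93 and 1.97 to 3.08. The sum rose 3.72 times (1.90, adjusted p = 4.42e-06) and 2.15 times (1.10, adjusted p = 0.000672), and its 3 h libraries all lay above the untreated 18.3, 23.5 and 15.7 CPM.

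HXT5, a transporter gene known to be on in slow growth and stress, had 14, 15.8 and 12 CPM untreated, 19, 29.4 and 21 with auxin and 17, 22 and 14.9 with DMSO. It rose with auxin (0.71 log2, SE 0.23, adjusted p = 0.0238) and did not pass with DMSO (0.37, adjusted p = 0.221), and the test between the 3 h groups did not pass. The highest value was that of auxin library 2, the one of low depth and high mitochondrial share, from 76 counts, and without it the call ended (0.56 log2). It also ended without untreated library 1 or 3, with adjusted p from 0.00945 to 0.0838 over 13 alternatives. What low depth and mitochondrial RNA contribute was not tested.

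Neither HXT1 nor HXT2 passed at 3 h. HXT1 had 668, 609 and 508 CPM in untreated cells, with changes of 0.18 (0.14 SE, adjusted p = 0.341) for auxin and -0.20 (adjusted p = 0.27) for DMSO. HXT2 had 485, 439.6 and 292 CPM untreated, 379.6, 293 and 294 with auxin and 338, 286 and 326 with DMSO, changes of -0.33 (adjusted p = 0.126) and -0.36 (adjusted p = 0.1). Untreated library 3 had the lowest HXT2 level of its group, and without it HXT2 passed as lower in both (-0.49 and -0.52 log2; adjusted p from 0.0155 to 0.459 over 13 alternatives and from 0.012 to 0.448 over 13 alternatives).

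Among the regulators MTH1 rose in both groups. It had 15.8, 19.2 and 7.32 CPM untreated, 26.8, 33.3 and 27.6 with auxin (2.05 times, 1.04 log2, SE 0.28, adjusted p = 0.00741) and 26.5, 35.8 and 40.4 with DMSO (2.43 times, adjusted p = 0.00169). SNF3, with 21.1, 17.1 and 16.4 CPM untreated, rose 1.45 times with auxin (0.53, adjusted p = 0.0165) and 1.45 times with DMSO (0.54, adjusted p = 0.015). Without untreated library 3 neither call on SNF3 held, and without DMSO library 2 that in DMSO ended (adjusted p from 0.00772 to 0.0519 over 13 alternatives and from 0.00354 to 0.0545 over 13 alternatives).

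RGT2 had 70.4, 67.8 and 76 CPM in untreated cells, below which all 3 libraries of auxin at 3 h lay (-0.34 log2, SE 0.11, adjusted p = 0.0254). DMSO libraries overlapped the untreated ones, and the change there was 0.29, adjusted p = 0.056. Both values depend on scaling: with total counts alone the change with auxin was -0.20 and did not pass (adjusted p = 0.257), and the change with DMSO was 0.50 and passed (0.00724). That scaling moves the median of all genes by 0.14 and 0.20 in these comparisons. The fall with auxin also ended in a fit of its 6 libraries alone and without untreated library 3 or auxin library 1 or 2 (adjusted p from 0.0194 to 0.257 over 13 alternatives), and the change with DMSO passed without DMSO library 1 (0.00724 to 0.246 over 13 alternatives).

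**Figure D5:**
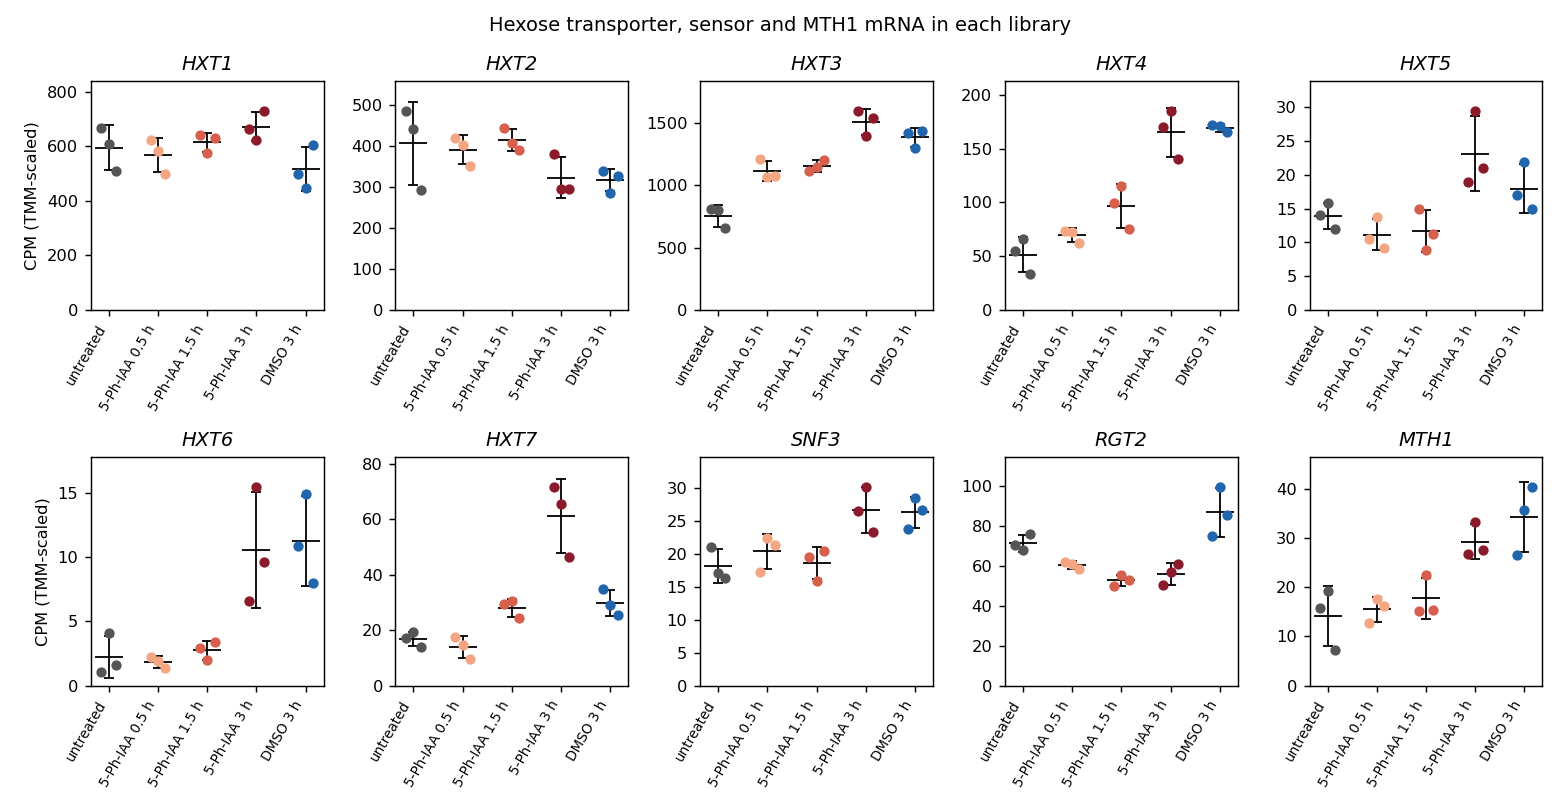
Level of each of the 10 genes in every library, in TMM-scaled CPM on a linear axis from 0, by group; points are libraries, horizontal marks are group means and bars are SD (n = 3). HXT3, HXT4, HXT6, SNF3 and MTH1 reach like levels in both 3 h groups, HXT7 is highest at 3 h of auxin, and RGT2 is highest in DMSO.

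Fewer of the genes passed at the earlier times. At 0.5 h of auxin only HXT3 of the 10 passed, beside 6.15% of all genes (3.36% higher and 2.78% lower), with 1210.1, 1065 and 1078 CPM, 1.48 times the untreated level (0.57 log2, SE 0.11, adjusted p = 0.00596). With total counts alone 41.0% of calls over all genes were higher in place of 54.7%. HXT3 passed under all 13 alternatives (highest adjusted p = 0.0402). HXT4 had 73.4, 72.9 and 62.1 CPM, which overlapped the untreated libraries (0.44, adjusted p = 0.231). The other transporters, the sensors and MTH1 had changes from -0.31 (HXT5) to 0.16 (SNF3), none of which passed. The sum of HXT6 and HXT7 did not pass either (-0.26, adjusted p = 0.575). RGT2 did not pass (-0.24, adjusted p = 0.268), although its 3 libraries at 62.2, 61.2 and 58.5 CPM lay below the untreated ones, and it and HXT3 made 2 of 10 with groups that did not overlap, beside 29.0% of all genes.

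At 1.5 h 4 of the 10 passed, beside 17.6% of all genes (7.86% higher and 9.74% lower), and 4 had groups without overlap, beside 41.1%. With total counts alone 58.5% of calls over all genes were higher in place of 44.7%. HXT3 at 1112, 1145 and 1203 CPM was 1.53 times (0.61, adjusted p = 0.00176) and HXT4 at 99.7, 115 and 75 CPM was 1.88 times the untreated level (0.91, adjusted p = 0.005). Both held under all 13 alternatives. HXT7 reached 29.4, 30.4 and 24.5 CPM (1.66 times, 0.73, adjusted p = 0.0285), and the sum of HXT6 and HXT7 rose too (0.69, adjusted p = 0.0344). RGT2 fell to 50.1, 55.5 and 53.2 CPM (-0.43, adjusted p = 0.0159). The HXT7 call and that of the sum ended on leaving out untreated library 1 or 3 or auxin library 1 or 2 (adjusted p for HXT7 from 0.00316 to 0.112 over 12 alternatives). That of RGT2 ended with total counts alone and without untreated library 3 or auxin library 1 or 3 (0.00847 to 0.0939 over 13 alternatives).

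Between 0.5 h and 1.5 h HXT7 alone passed (1.99 times, 0.99, adjusted p = 0.0353), beside 1.14% of all genes (0.923% higher and 0.214% lower). That call, and that of the sum (0.95, adjusted p = 0.0389), ended on leaving out library 2 or 3 of 0.5 h or any library of 1.5 h (adjusted p for HXT7 from 0.000813 to 0.169 over 12 alternatives). Groups without overlap were seen for 3 of 10 members, HXT4 and HXT7 (higher) and RGT2 (lower), beside 25.1% of all genes. Between 1.5 h and 3 h 5 of 10 rose, all transporters, beside 15.8% of all genes (8.9% higher and 6.94% lower), and 8 had groups without overlap, beside 32.2%. Of these 8, HXT2 was lower at 3 h and did not pass (-0.36, adjusted p = 0.153). HXT6 rose 3.64 times (1.86, adjusted p = 0.00845), HXT7 2.17 times (1.12, adjusted p = 0.00288), HXT5 1.93 times (0.95, adjusted p = 0.0123), HXT4 1.71 times (0.77, adjusted p = 0.0137) and HXT3 1.31 times (0.39, adjusted p = 0.0274). The sum of HXT6 and HXT7 rose 2.31 times (1.21, adjusted p = 0.00137). The HXT6 value rests on only 24, 13 and 25 counts at 1.5 h and on how shared reads were assigned. SNF3 (0.50, adjusted p = 0.0501) and MTH1 (0.71, adjusted p = 0.0934) did not pass, but both did in DESeq2, SNF3 also with RLE size factors, with total counts alone and without library 3 of 3 h, and MTH1 also in a fit of its 6 libraries alone (adjusted p from 0.0317 to 0.173 over 13 alternatives and from 0.0439 to 0.254 over 13 alternatives). The HXT3 step ended in a fit of its 6 libraries alone and without library 1 or 2 of 1.5 h or library 1 of 3 h (0.00273 to 0.102 over 13 alternatives), that of HXT4 without library 3 of 1.5 h (0.00139 to 0.0606 over 13 alternatives), and that of HXT5 without library 2 of 1.5 h or of 3 h (0.00126 to 0.0605 over 13 alternatives). No DMSO library of 0.5 h or 1.5 h was analysed, so the steps also hold time in culture.

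The rest of the transporter family was little expressed. Of 10 further genes, 7 passed the filter, and none was called in any of the 7 comparisons. HXT8 had at most 11.4 CPM and HXT11 at most 10.5 in any library, and HXT14, HXT16 and HXT17 had 18, 25 and 7 counts over all 15 libraries. GAL2, which carries galactose, had -0.15 log2 at 3 h of auxin against untreated cells (adjusted p = 0.744).

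The sensor pathway has further genes that were followed. Of 7 (RGT1, STD1, GRR1, YCK1, YCK2, CYC8 and TUP1), none passed between auxin and DMSO at 3 h in edgeR, and none had an unadjusted p under 0.05. The median was 0.02 log2. Against untreated cells TUP1, of the general corepressor that Rgt1 works with, fell with auxin (-0.67 log2, adjusted p = 0.00415) and DMSO (-0.50, adjusted p = 0.0246), and so did GRR1 (-0.42, adjusted p = 0.00502, and -0.35, adjusted p = 0.0145). These 2 of 7 in each stand beside 39.3% and 36.1% of all genes. With auxin, STD1 (0.01, adjusted p = 0.966) and YCK2 (-0.02, adjusted p = 0.901) did not pass.

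Hexose kinases trap sugar once it has entered. Against untreated cells 3 of 4 rose with auxin, beside 19.6% of all genes, and 4 of 4 with DMSO, beside 17.6%. HXK1, the hexokinase gene repressed by glucose, had 68.2 ± 17.7 CPM at 3 h of auxin and 43.7 ± 16.8 in DMSO, against 12.1 ± 7.82 in untreated cells (2.51 and 1.85 log2, adjusted p = 0.00011 and 0.00154). The glucokinase gene GLK1 went from 72.4 ± 23.3 to 254 ± 38.7 and 260.5 ± 48.7 CPM (1.81 and 1.85 log2), and EMI2, its relative, rose by 1.86 and 1.65. HXK2, the main hexokinase gene of cells in glucose, had 570 ± 60.2 CPM in untreated cells and was among those that rose with DMSO. It was lower with auxin than with DMSO (533 ± 17.2 against 729.9 ± 62.6 CPM, -0.45 log2, adjusted p = 0.0192). Between those groups HXK1 (0.66, adjusted p = 0.305), GLK1 (-0.04, adjusted p = 0.939) and EMI2 (0.21, adjusted p = 0.629) did not pass.

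Of 10 genes of the Snf1 and Mig1 branch, SIP2 and GAL83, which encode beta subunits of the Snf1 kinase, rose with auxin at 3 h (0.83 log2, adjusted p = 0.00116, and 0.35, adjusted p = 0.015) and with DMSO (0.63, adjusted p = 0.00853, and 0.59, adjusted p = 0.000378). These 2 of 10 in each stand beside 39.3% and 36.1% of all genes. None of the 10 passed between auxin and DMSO in edgeR, with 3 at an unadjusted p under 0.05. Of 12 genes repressed by glucose, 4 rose and 1 fell at 3 h of auxin, and 2 rose and 2 fell in DMSO, counts near the 39.3% and 36.1% of all genes called in either direction. ADR1, an activator of ethanol and fatty acid use, rose in both (1.73 and 1.74 log2), as did JEN1, a lactate carrier gene (0.64 and 0.62). In DMSO SFC1, a mitochondrial carrier gene, fell too (-1.60, adjusted p = 0.00109). ADH2, the ethanol-using alcohol dehydrogenase gene, fell in both (-0.48, adjusted p = 0.0253, and -0.78, adjusted p = 0.00118). SIP4, an activator of genes for glucose synthesis, was the only one of the 12 to pass between auxin and DMSO, where it was higher (25.6 ± 5.72 against 15.1 ± 1.36 CPM, 0.73 log2, adjusted p = 0.019). CAT8 (0.08, adjusted p = 0.851) and MLS1 (0.27, adjusted p = 0.492) did not pass against untreated cells at 3 h of auxin.

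The second glucose-sensing route of yeast, through the receptor Gpr1 and cyclic AMP, was followed through 11 genes. Of these, 7 rose and none fell at 3 h of auxin, and 7 rose and 1, the phosphodiesterase gene PDE2, fell in DMSO, beside 39.3% and 36.1% of all genes called (19.6% and 17.6% higher). With auxin RGS2 rose by 1.24 log2 (adjusted p = 6.03e-06), PDE1 by 1.14 (6.84e-06) and GPA2 by 0.86 (0.000584), while TPK3 (-0.14) and BCY1 (-0.19) did not pass. RGS2, which turns off the G protein Gpa2, was the only one to pass between auxin and DMSO (0.60, adjusted p = 0.0133). Of 7 genes for ubiquitination and uptake of transporters from the membrane, ECM21 rose and BUL2 fell against untreated cells in both 3 h groups (1.07 and -0.37 with auxin, 0.85 and -0.31 with DMSO), 2 of 7 beside 39.3% and 36.1% of all genes, and none passed between auxin and DMSO in edgeR or at an unadjusted p under 0.05. The mating type is not labelled: the a-cell markers MFA1, MFA2, STE2, STE6 and BAR1 had 74 CPM or more in every library, and of the alpha-cell markers MF(ALPHA)1 had at most 1.25 CPM, STE3 1.57 to 4.6, MF(ALPHA)2 6.81 to 13.5 and SAG1 13.9 to 26.7. All 5 a-cell markers fell at 3 h against untreated cells in both groups, beside 19.7% of all genes with auxin and 18.5% with DMSO, for example MFA1, which encodes a-factor, with changes of -1.82 and -1.70 log2, and BAR1, a protease gene, was also lower with auxin than with DMSO (-0.79, adjusted p = 0.00687). Of 4 alpha-cell markers 3 passed the filter, and none passed the test in edgeR at 3 h in any of these comparisons, with 1 at an unadjusted p under 0.05 for auxin against untreated cells. Their part in the results above was not tested.

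For each member the 2 other genes with the most alike pattern of log2 CPM over the 15 libraries were looked up among 5208 genes with a mean of at least 10 CPM, with Pearson's r as the measure and as a description only, since the libraries share groups, depth and scaling. For HXT4 they were GGA1, an adaptor of Golgi traffic (r = 0.98), and FBP26, a fructose-2,6-bisphosphatase gene (0.97). HXT7 was closest to GAT2 (0.97) and FMP33 (0.95), HXT3 to ADK2 (0.94) and SAP4 (0.93), HXT6 to MTG1 (0.94) and FRT2 (0.93), and HXT5 to TRE1 (0.93) and GTT1 (0.91). MTH1 was closest to SHE4 (0.96) and YLR345W (0.93), SNF3 to GIS1, a transcription factor gene of glucose exhaustion (0.90), and NTH2, a trehalase gene (0.88), and RGT2 to DAL3, of allantoin breakdown (0.91), and XRS2 (0.88). HXT1, with MUP1, a methionine permease gene (0.84), and YIP1 (0.84), and HXT2, with SNU56 (0.85) and VMA21 (0.83), had the lowest such values of the 10.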

How the data were processed

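The authors deposited raw counts of reads per gene, 1 column for each of the 15 libraries, and all columns were mapped to samples by their names. Per the submitters' processing notes, FastQC 0.11.5, STAR 2.7.0 and DESeq2 1.34.0 were used with genome build R64. The counter, its strand setting and its handling of reads with several matches are not stated in the labels or headers. HXT6 and HXT7 can therefore hold each other's reads, and any antisense gene's reads could be counted too. No other gene of the RefSeq R64 table overlapped a member's coding sequence, and antisense RNA outside that table was not examined.

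Of 7127 gene rows, 6047 matched the RefSeq R64 table by locus tag, 44 by symbol or synonym, and 1036 did not match. Counts were fitted with edgeR 4.0.16 (R 4.3.3, limma 3.58.1) with filterByExpr, TMM, 1 mean per group over all 15 libraries, the two-sided quasi-likelihood test and Benjamini-Hochberg adjustment over the 6069 genes tested, at 0.05. Log2 CPM used a prior count of 1. Standard errors came from the F statistic. A second fit replaced HXT6 and HXT7 by their sum. Levels per length used coding length. Sequences and motif matches were read from the R64 genome with Python 3.11.15 and Biopython 1.88, and figures were drawn with matplotlib 3.10.9. The fit was tested on simulated counts for 5-Ph-IAA against DMSO at 3 h with 200 of 6069 genes changed: 38.8% of 1.5-fold, 79.1% of 2-fold and 95.5% of 4-fold changes were recovered, and 6 of 148 calls were false. The simulated libraries were independent, with no deviation shared by replicate number, and every other gene had the same mean in all groups. These rates need not hold for the real libraries.

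The named genes are the 10 members, the 2 genes most alike to each, and from other lists up to 4 genes with the smallest adjusted p that passed and up to 2 with the largest that did not. PDE2, MFA1, BAR1, GAL2, HXT8, HXT11, HXT14, HXT16 and HXT17 were named after their values were seen. The values of 1 gene that the rule names are not reported here. The members and lists were chosen with earlier results of these data known. Alternatives were DESeq2 1.42.0, scaling by RLE or by totals, omission of the filter, a fit of the groups being compared alone, a block for replicate number, leaving out each library, and HXT6 and HXT7 summed into 1 row.

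Replicate numbers are shared by all groups. Whether they pair libraries was judged from how same-numbered libraries deviate from their group's mean. Between auxin and solvent at 3 h the correlations were 0.196, 0.302 and 0.586, and each of the 6 libraries was closest to its own number, so these were also fitted as pairs. The labels do not state this pairing. In each other comparison at least 1 of 3 correlations was under 0.1.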

Additional observations from a re-analysis of the deposited data

How the results depend on the processing

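Of the single-gene values under alternatives, 834 kept direction and side of the threshold, 32 lost the call, 12 gained one and 28 changed sign; the causes were not tested. For auxin (5-Ph-IAA) against DMSO at 3 h, a fit of those libraries alone called 1 member, and the sum of HXT6 and HXT7 was 0.80 log2 and no longer passed. There SNF3, not called, changed sign with RLE size factors (0.00636), with the replicate block (0.000228), with pairing of the 3 h libraries (0.00456) and with those libraries alone (0.0043), and HXT2 with total counts (-0.036). The replicate block over all libraries changed no call on a member, and the pairing at 3 h, chosen after seeing the data, changed that of HXT1 alone.

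Leaving out each library in turn, the members called ran from 2 to 4 at 1.5 h, 0 to 1 for 1.5 h against 0.5 h and 3 to 6 for 3 h against 1.5 h. The sum of HXT6 and HXT7 ran from 0.67 to 0.95 log2 for auxin against DMSO, 0.58 to 0.87 at 1.5 h and 0.77 to 1.14 for 1.5 h against 0.5 h. Uncalled changes that reversed ran as follows: auxin against DMSO, HXT2 -0.11 to 0.098, HXT4 -0.12 to 0.065, HXT6 -0.44 to 0.10 and SNF3 -0.078 to 0.092; at 0.5 h, HXT1 -0.16 to 0.023, HXT2 -0.24 to 0.095, HXT6 -0.58 to 0.51 and MTH1 -0.17 to 0.43; at 1.5 h, HXT1 -0.036 to 0.14, HXT2 -0.14 to 0.18, HXT6 -0.051 to 1.05 and SNF3 -0.024 to 0.15; and 1.5 h against 0.5 h, HXT5 -0.13 to 0.26 and MTH1 -0.015 to 0.32.

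Over all genes, auxin against DMSO called 482 genes, 151 with those libraries alone, 820 with pairing and 272 to 562 without 1 library. The count at 0.5 h was 373, 568 with those libraries alone and 178 to 274 without 1 library, and at 1.5 h 1068 against 577 to 851. For 1.5 h against 0.5 h it was 69, 222 with those libraries alone, 115 with total counts, 165 in DESeq2 and 23 to 42 without 1 library, and for 3 h against 1.5 h 961, 631 and 523 to 1287. Total counts moved the share of calls that were higher from 63.9% to 49.7% for auxin against DMSO, from 49.9% to 64.8% at 3 h and from 48.7% to 74.2% for DMSO against untreated cells, from 54.7% to 41.0% at 0.5 h, from 44.7% to 58.5% at 1.5 h, from 81.2% to 95.7% for 1.5 h against 0.5 h and from 56.2% to 68.4% for 3 h against 1.5 h. HXT6 had the lowest counts of the members, 8 to 35 in untreated libraries, and why was not tested.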
